A study of Rattus norvegicus with 6 samples.

Results

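Creb3l1, Spdef, Gcnt3, Csap1, Lman1l and Cgref1 are 6 genes of secretory cells, 2 of them transcription factors, 1 a mucin glycosyltransferase, 1 a relative of an intracellular cargo receptor, and 2 secreted proteins. They were picked by symbol from the 14871 genes that the platform annotation names on the arrays, and each has 1 probe there. They had been chosen because of their log ratios in salivary glands, so those ratios are given as a description and nothing is tested.

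The arrays come from male Wistar rats that were tickled by hand, touched lightly or left without stimulus on weekdays for 4 weeks, starting at 21 days of age, and sampled at 60 days; all were kept in single cages behind screens. Tickling imitates rough play and evokes ultrasonic calls, and light touch served as the handling control. There are 6 two-colour arrays, 2 each for salivary glands, striatum and peripheral leukocytes, and each sets tickled RNA (Cy5) against light-touch or no-stimulus RNA (Cy3) of the same tissue. The light-touch array and the no-stimulus array are called here by their comparator.

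Values are log ratios of tickled over comparator, read here as log2, so a negative value means a lower signal in tickled RNA. The direction follows from the dyes in the labels. The values do not tell base 2 from the natural log. Read as natural logs, each log2 ratio would be 1.44 times as large. There is 1 array per comparison and no dye swap, which limits the precision: no p-value or SD between animals can be given. Per the labels there were 4 animals per condition, but the sources used here do not say whether an array holds a pool or 1 animal, or whether the tickled RNA on a tissue's 2 arrays is one extract. The extraction text of every sample names hypothalamus, which differs from the tissue labels. The labels do not say which of the salivary glands (parotid, submandibular, sublingual) were taken. Of 6 granular duct markers of salivary glands on the platform, 6 had a value on each salivary array, against 1 on each striatal and each leukocyte array. Other salivary markers separated the tissues less clearly. Of 7 mucous acinar markers, 5 had a value on each salivary array, against 4 and 2 in striatum and 3 and 1 in leukocytes (no-stimulus and light-touch array). Of 7 parotid acinar markers, 6 had a value on each salivary array, against 3 and 4 in striatum and 2 and 2 in leukocytes.

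In salivary glands, mucous acinar cells make mucins and serous demilune cells at their ends make smaller salivary proteins. Mucins are covered with sugar chains that begin with N-acetylgalactosamine on serine or threonine and are then built into core structures, extended and capped with sialic acid. In mice, Spdef, an ETS family transcription factor, promotes the maturation of goblet and other mucus-secreting cells, and Creb3l1, a transcription factor held in the endoplasmic reticulum membrane until proteases release it, takes part in the maturation of goblet cells.

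In salivary glands, all 6 genes had negative log2 ratios on the no-stimulus array, and 5 of 6 were 2-fold or more lower in tickled glands. Over all 10522 genes valued on that array, 1.02% were 2-fold or more lower. Since these ratios led to the choice of the genes, nothing is read from that contrast. The median of the 6 genes was -3.92, against -0.01 over all genes. In RNA of salivary gland tissue, fewer cells of a type, less RNA per cell and a different mix of the glands taken cannot be told apart.

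On the light-touch array, 5 of the 6 genes had a value, between -0.32 and 0.19 on the log2 scale with a median of -0.15, and 0 of 5 were 2-fold apart either way. There, 0.252% of 10716 genes were 2-fold or more apart, so a count of 0 among 5 genes is near the background. The plot of the genes by array shows the ratios of one salivary array far below 0 and those of the other close to it.

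**Figure D1:**
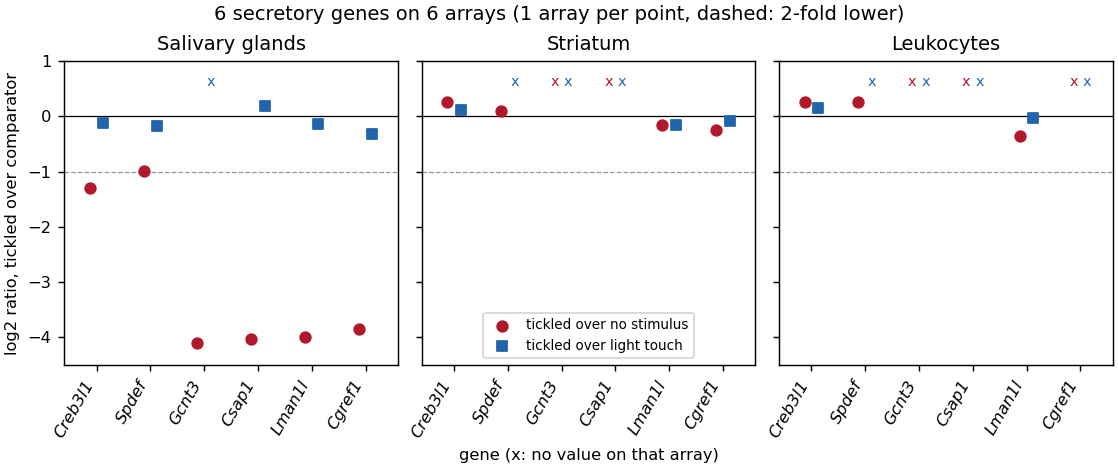
Log2 ratios of tickled over comparator (vertical axis) for the 6 genes in 3 tissues; circles are the no-stimulus arrays, squares the light-touch arrays, each point 1 array, and an x marks a gene with no value on an array. Gcnt3, Csap1, Lman1l and Cgref1 lie between -4.11 and -3.85 on the salivary no-stimulus array, and every other point lies between -1.30 and 0.27.

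Of the transcription factors, Creb3l1 (Entrez gene 362165) had a log2 ratio of -1.30 over no stimulus, a 2.46-fold lower signal in tickled glands, and -0.12 over light touch. Spdef (Entrez gene 689210) had -0.997 over no stimulus, with -0.17 over light touch, so it lay just short of the 2-fold limit on the first array. Both regulators thus stood well apart from the other 4 genes in size, ranking 68 and 112 from the lowest of 10522 genes on the no-stimulus array.

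The other 4 genes were among the 6 lowest on that array. Gcnt3 (Entrez gene 286976), whose enzyme adds the branch that makes core 2 and core 4 chains of mucins, had the second lowest log2 ratio, -4.11, a 17.2-fold lower signal in tickled glands. It had no value on any of the other 5 arrays. Csap1 (Entrez gene 171161), which encodes a common salivary protein of the rat, had -4.03 over no stimulus, a 16.3-fold lower signal, and 0.19 over light touch. Csap1 was the only one of the 5 genes valued on the light-touch array with a positive ratio there.

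Lman1l (Entrez gene 300743) encodes a relative of LMAN1, a lectin that carries glycoproteins from the endoplasmic reticulum towards the Golgi. It had a log2 ratio of -3.99 over no stimulus, a 15.9-fold lower signal in tickled glands, and -0.15 over light touch. Cgref1 (Entrez gene 245918), which encodes a secreted protein with EF-hand calcium-binding motifs, had -3.85 over no stimulus, a 14.4-fold lower signal, and -0.32 over light touch, the lowest of the 5 values there. These 4 genes spanned 0.26 log2 units on the no-stimulus array, with a gap of 2.55 to Creb3l1. Since the genes were chosen on these ratios, nothing is read from that closeness. The only other genes as low were Bpifa2f at -5.93 and Bpifb2 at -3.88, both of the family of BPI-fold proteins.

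The difference of both salivary arrays gives light touch over no stimulus, if the tickled RNA on them is one extract. On that reading the log2 ratio of light touch over no stimulus was -4.22 for Csap1, -3.85 for Lman1l, -3.53 for Cgref1, -1.17 for Creb3l1 and -0.83 for Spdef.

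Since the genes were chosen on their ratios, the promoters of the 4 lowest are shown as a description only. They run from 250 bases before to 50 after the start of the gene in RefSeq, assembly GRCr8, and are written 5′ to 3′ on the strand of the gene. Capitals mark AGGAAG, an ETS site, and CCACG, which is part of the endoplasmic reticulum stress response element, on either strand. The windows are chr8:79573508-79573807 (minus strand) for Gcnt3, chr10:13418692-13418991 (plus strand) for Csap1, chr8:66919535-66919834 (minus strand) for Lman1l and chr6:31151545-31151844 (plus strand) for Cgref1.
Gcnt3: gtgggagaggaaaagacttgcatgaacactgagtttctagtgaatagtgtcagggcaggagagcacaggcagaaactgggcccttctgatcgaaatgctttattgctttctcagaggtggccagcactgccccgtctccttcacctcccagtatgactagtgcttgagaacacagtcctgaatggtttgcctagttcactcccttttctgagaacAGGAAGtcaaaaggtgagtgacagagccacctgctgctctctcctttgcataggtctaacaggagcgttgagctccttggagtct
Csap1: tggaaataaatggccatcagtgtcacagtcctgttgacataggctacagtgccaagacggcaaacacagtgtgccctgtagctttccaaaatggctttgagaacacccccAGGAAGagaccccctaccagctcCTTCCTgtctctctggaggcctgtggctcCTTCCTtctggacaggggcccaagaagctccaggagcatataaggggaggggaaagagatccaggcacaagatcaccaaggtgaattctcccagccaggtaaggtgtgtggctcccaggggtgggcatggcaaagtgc
Lman1l: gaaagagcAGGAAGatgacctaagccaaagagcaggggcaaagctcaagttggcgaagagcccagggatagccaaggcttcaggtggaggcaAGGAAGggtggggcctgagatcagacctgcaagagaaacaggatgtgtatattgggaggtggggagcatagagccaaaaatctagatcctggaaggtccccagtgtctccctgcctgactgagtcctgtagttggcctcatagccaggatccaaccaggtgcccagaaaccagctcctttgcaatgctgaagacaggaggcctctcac
Cgref1: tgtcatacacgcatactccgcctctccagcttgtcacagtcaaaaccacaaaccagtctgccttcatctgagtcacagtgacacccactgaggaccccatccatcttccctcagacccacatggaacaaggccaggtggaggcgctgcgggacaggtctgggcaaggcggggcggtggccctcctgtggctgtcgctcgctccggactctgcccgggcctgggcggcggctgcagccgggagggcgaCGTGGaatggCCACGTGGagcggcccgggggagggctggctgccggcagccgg

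All 6 genes matched a promoter in the RefSeq table, and 6 motifs were searched on both strands. AGGAAG was found in 5 of 6 windows, those of Gcnt3, Csap1, Lman1l, Creb3l1 and Spdef, and in 34.5% of all 33469 windows. Over the 84 windows of the other genes that were 2-fold lower on the salivary no-stimulus array, the share was 35.7%. CCACG was found in 3 of 6 windows, those of Cgref1, Creb3l1 and Spdef, and in 31.6% of all. In the Cgref1 window its 3 matches lie close to the start of the gene, and a pair of them overlap. The other ETS site CCGGAA was found for Creb3l1 alone (15.0% of all windows) and CCGGAT for 0 of 6 (6.64%). TGACG, part of the cyclic AMP response element, was found for 0 of 6 (21.2%), and TATAA, the core of the TATA box, for Csap1 and Spdef (26.2%). A match is a run of letters and does not show that a factor binds there.

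In the other tissues the genes had fewer values and none was 2-fold apart. In striatum, 4 genes had a value over no stimulus and 3 over light touch, where 0.137% and 0.166% of all genes were 2-fold or more apart. Creb3l1 had log2 ratios of 0.27 and 0.12 there over no stimulus and light touch, Lman1l had -0.15 and -0.15, and Cgref1 had -0.25 and -0.08. Spdef was valued over no stimulus alone, at 0.10.

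In leukocytes, 3 genes had a value over no stimulus and 2 over light touch, where 0.522% and 1.71% of all genes were 2-fold or more apart. Creb3l1 had 0.26 over no stimulus, with 0.15 over light touch, and Lman1l had -0.36 and -0.04. Spdef had 0.26 over no stimulus alone. Csap1 and Gcnt3 had no value on any striatal or leukocyte array. The sources used here do not state by which rule the authors left values blank, so a blank does not show that a gene was not expressed.

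Creb3l1 and Spdef belong to families whose other members were read on the same arrays. In the CREB3 family, transcription factors of the endoplasmic reticulum membrane, Creb3l4 was lower than Creb3l1, with -2.17 over no stimulus, a 4.49-fold lower signal in tickled glands, and -0.20 over light touch. Creb3 had -0.27 and -0.09 over no stimulus and light touch, and Creb3l2 had -0.24 and -0.21. Creb3l3 was valued over light touch alone, at 0.07. The site-1 and site-2 proteases that release these factors were near 0 over no stimulus, Mbtps1 at -0.03 and Mbtps2 at 0.00. Of the 8 genes of this list valued over no stimulus, 2 were 2-fold lower and 0 higher, and the median was -0.30. Only these 2 of the 4 valued CREB3 factors passed 2-fold.

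Among the epithelial ETS and secretory cell transcription factors, 0 of 12 valued genes were 2-fold apart on the no-stimulus array, with a median of -0.10. The ETS factor Ehf had 0.01 and Sox9 had -0.10 over no stimulus. Spdef was the lowest of this list, and the other 11 lay between -0.30 and 0.80.

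Gcnt3 acts in the pathway of mucin-type O-glycosylation, in which 43 of the listed enzymes were on the platform. Of the 29 enzymes valued on the no-stimulus array, 7 were 2-fold or more lower in tickled glands and 0 were higher, against 1.02% of all genes lower and 0.931% higher. Without Gcnt3 the count was 6 of 28, or 21.4%. With only probes valued on both salivary arrays, 4 enzymes were 2-fold or more lower. The list was chosen with earlier results of these data known, so nothing is read from the contrast with all genes. The list's median was -0.07, against -0.01 over all genes, so most enzymes lay near 0 and a minority lay far below. On the light-touch array, 0 of 26 valued enzymes were 2-fold apart and the median was 0.06.

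The enzymes that were lower sat at several steps of the pathway. Of 8 valued N-acetylgalactosaminyltransferases, 2 were 2-fold lower. Galnt7 had -2.03 over no stimulus, with -0.16 over light touch, and Galnt5 had -1.46 and -0.23. Of 4 enzymes that build the cores, 2 were lower, Gcnt3 and B3gnt6, the core 3 synthase, at -2.97 over no stimulus. Neither had a value on the light-touch array. The core 1 enzyme C1galt1 and its chaperone C1galt1c1 were the core enzymes that stayed within 2-fold.

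Of 8 sialyltransferases, which cap chains, 3 were 2-fold lower over no stimulus. St3gal4 had -1.89 over no stimulus, with 0.17 over light touch. St3gal1, which caps core 1 chains, had -1.44 and 0.11, and its 3 probes lay between -1.64 and -1.30 over no stimulus. The last was St3gal3, at -1.29 over no stimulus and with no value over light touch. Some of these sialyltransferases also act on other glycans. Of 8 extending and branching enzymes 0 passed 2-fold, but the galactosyltransferase gene B4galt4, at -0.999 over no stimulus, lay just short of that limit and passed it once the array was centred on its median. Gcnt2, the only other gene of the GCNT family with a value, had 0.30 over no stimulus, with 0.09 over light touch. Enzymes nearest 0 over no stimulus were St3gal6 (-0.02) and B3gnt8 (0.03). The plot of these enzymes in order of their ratio shows the lower ones running on from the rest with no break at 2-fold, since B4galt4 was followed by Galnt10 at -0.81 and B3gnt7 at -0.58 over no stimulus.

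**Figure D2:**
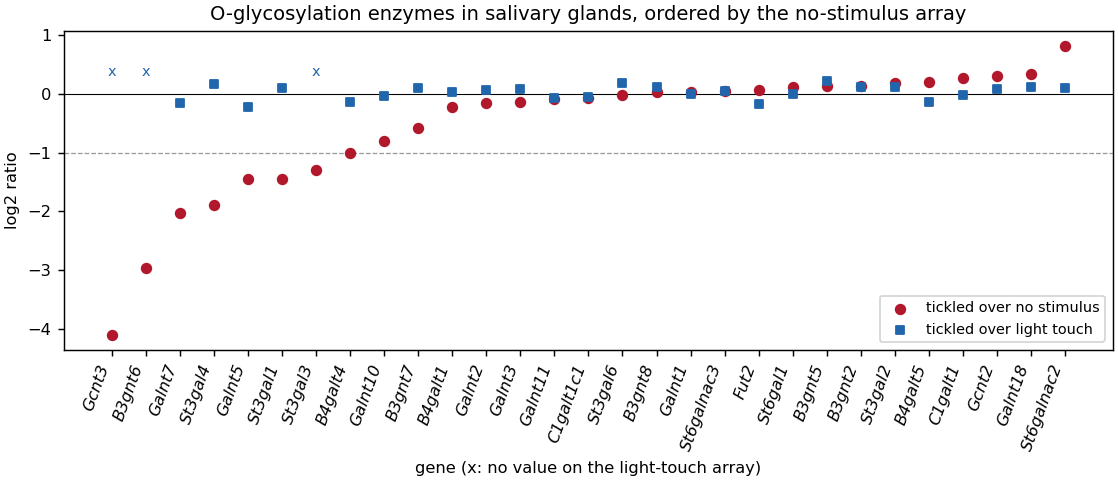
Log2 ratios of tickled over no stimulus (circles) and over light touch (squares) for the 29 O-glycosylation enzymes valued on the salivary no-stimulus array, ordered by that array; each point is 1 gene on 1 array and an x marks a gene without a light-touch value. Circles of 7 enzymes lie below the dashed 2-fold line, down to -4.11 for Gcnt3, while the squares lie between -0.23 and 0.22.

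The mucins themselves were poorly covered. Of 5 mucin genes on the platform, 2 had a value in salivary glands. Muc20, a membrane-bound mucin, had -1.93 over no stimulus, with 0.28 over light touch, and Muc1, also membrane-bound, had 0.14 and 0.10. The probes of the secreted mucins Muc2 and Muc5ac had no value on either salivary array. Muc19 and Muc5b, the main secreted salivary mucins, were not analysed here. No ratio of a gel-forming mucin can therefore be set beside those of the 6 genes.

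Other products of goblet and mucous cells were valued for 5 genes over no stimulus, of which 1 was 2-fold lower. It was Bcas1, at -3.51 over no stimulus and -0.15 over light touch. Only 1 of the 3 Bcas1 probes had a value over no stimulus. Zg16, a secreted lectin of goblet and zymogen granules, had 0.08, and the potassium channel gene Kcnn4 had 0.10 over no stimulus. Agr2, a disulfide isomerase needed for intestinal mucin in mice, was valued over light touch alone, at -0.09.

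The cell type named for these genes could hardly be checked. Of 5 mucous acinar markers valued over no stimulus, Creb3l1, Spdef and Gcnt3 are among the 6 genes themselves and check nothing. Of the other 2, 1 was 2-fold lower: Bpifb2 had -3.88 over no stimulus, with -0.01 over light touch, and the water channel gene Aqp5, which serous acini express too, had -0.09 on both. Tff2 had no value on either salivary array. Bpifb2 is also listed here among the serous and other acinar products, so the name of mucous acinar genes is a label that these values do not test.

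Lman1l was chosen for its low ratio, so its place within its own pathway is given as a description. Of 23 L-type lectins and cargo receptors of transport from the endoplasmic reticulum to the Golgi, 1 was 2-fold lower over no stimulus, Lman1l itself. The other 22 lay between -0.41 and 0.16, with a median of -0.09. Lman1, its nearest relative in name, had -0.23 over no stimulus, with -0.16 over light touch, and its 3 probes lay between -0.33 and -0.22 on the first array. Lman2 had 0.12 and 0.08, Lman2l had 0.12 and -0.08, and Mcfd2, the partner of LMAN1, had -0.06 and -0.29. Nearest 0 over no stimulus were Tmed7 (-0.02) and Bcap31 (0.02).

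Of 14 valued genes of the COPII coat, which shapes vesicles that leave the endoplasmic reticulum, 1 was 2-fold lower over no stimulus and the median was -0.20. Sec24d, a cargo-binding subunit, had -1.20 over no stimulus, with -0.67 over light touch. Sec22b (0.01) and Sec24b (-0.02) lay nearest 0. Of 27 protein disulfide isomerases, oxidases and chaperones, 0 were 2-fold apart over no stimulus, between -0.64 and 0.47 with a median of -0.17. Tmx1 (0.00) and Dnajc3 (0.01) were nearest 0.

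Cgref1, also chosen for its low ratio, was the only gene of its list past 2-fold. The 12 others, mostly secreted or luminal EF-hand and related calcium-binding proteins, lay between -0.31 and 0.36 over no stimulus, with a median of -0.14. Among them, Rcn2 had -0.05.

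Csap1 belongs to the secretory products of acini, which went both ways. Of 20 valued products, 5 were 2-fold lower and 4 higher over no stimulus, and the median was 0.07. Beside Csap1, Bpifa2f, Bpifb2, Amy1 (-1.47) and Dnase1 (-1.26) were lower. Higher over no stimulus were Smr3b, a prohormone gene (3.03), Cyss, the gene of cystatin S (2.11), Pip (1.87) and Prpmp5 (1.51). Smr3b is also counted among the granular duct markers and products. Lpo, which encodes lactoperoxidase, and Dmbt1 were nearest 0, each at 0.01. On the light-touch array 3 of 20 were 2-fold apart.

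**Figure D3:**
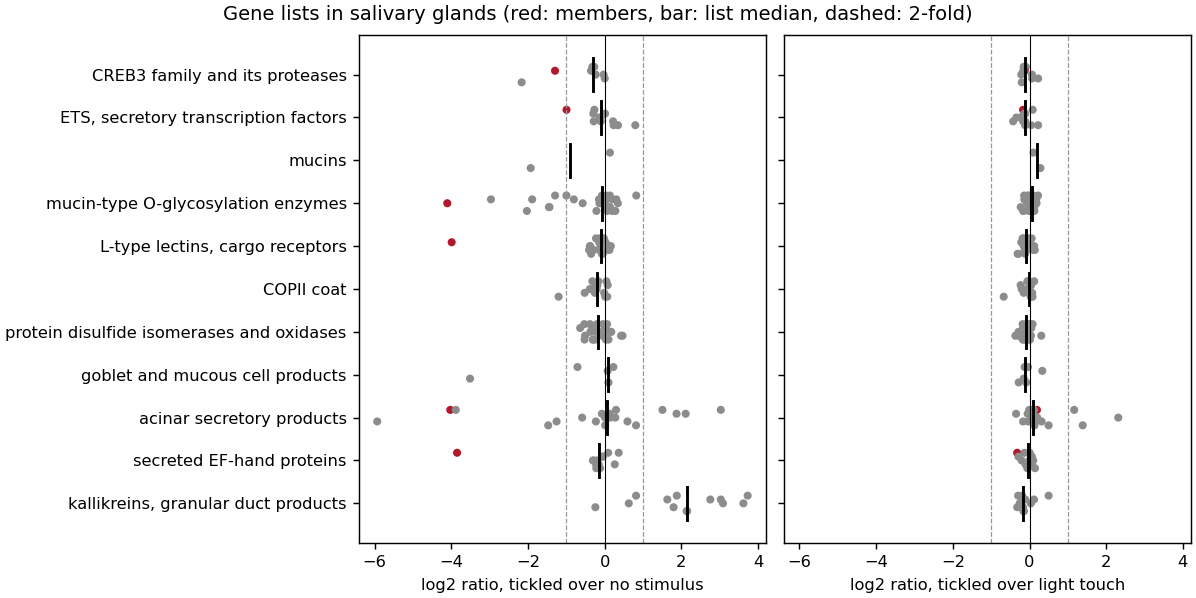
Log2 ratios in salivary glands over no stimulus (left) and over light touch (right) for the genes of 11 lists; each point is 1 gene on 1 array, red points are the chosen genes, black bars are list medians and dashed lines mark 2-fold. In the left panel the chosen genes, picked for these ratios, lie at the low end of their lists. Most list medians lie close to 0, and kallikreins and granular duct products lie on the other side with a median of 2.14.

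Markers of other cell types also differed on the no-stimulus array. Tissue kallikreins and other products of the granular ducts of the submandibular gland were higher, 10 of 13 by 2-fold or more, with Klk1c9 at 3.73 and Klk1c2 at 3.62. The median of the list was 2.14 on the no-stimulus array and -0.17 on the light-touch array. All 6 granular duct markers were 2-fold higher over no stimulus, between 1.88 and 3.73. These 6 are among the same 13 genes and add no separate observation. Of 6 parotid acinar markers, 1 was 2-fold lower and 1 higher over no stimulus, and 3 were 2-fold higher and 0 lower over light touch, Bpifa2 (2.31), Amy1 (1.39) and Prpmp5 (1.17). Amy1 had -1.47 over no stimulus. Of 7 adipocyte markers, 3 were 2-fold lower over no stimulus and the same 3 were 2-fold higher over light touch: Adipoq (-1.52 and 1.33), Retn (-1.11 and 1.53) and Car3 (-1.68 and 1.61). Of 4 myoepithelial markers 1 was lower, and of 7 duct markers 1 was higher, over no stimulus. None of 6 lymphoid, 6 endothelial or 4 skeletal muscle markers was 2-fold apart on either array. Levels in each channel were not used here, so a summed level per group cannot be given. The part of these cell types in the ratios of the 6 genes was not tested.

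The genes whose pair of salivary log2 ratios was most like the medians of the 5 genes valued on both arrays (-3.85 and -0.15) were sought by Euclidean distance over these 2 arrays. The nearest was Bpifb2, at a distance of 0.14. Next came Bcas1 (distance 0.34) and Tspan1, a tetraspanin gene, at -3.46 over no stimulus and -0.24 over light touch (distance 0.40). Kcne1, a potassium channel subunit gene, had -3.06 and 0.12. Cdh22, a cadherin gene, had -2.99 and -0.33, but its 2 probes over no stimulus differed, at -4.21 and -1.76.

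The remaining 5 of these 10 genes were further off, at distances between 0.98 and 1.30. They were Cbln1 (cerebellin 1), Pf4 (platelet factor 4), Bglap (osteocalcin), Mme (neprilysin) and Kntc1, a kinetochore gene, with log2 ratios between -2.96 and -2.56 over no stimulus. A likeness over 2 values in 1 tissue is a description of these arrays. In striatum, Bpifb2 had 0.04 over no stimulus, with -0.04 over light touch, and Tspan1, Cdh22, Mme and Kntc1 lay between -0.19 and 0.11, within the range of the chosen genes there (-0.25 to 0.27). Outside that range were Bcas1, with 0.58 and 0.33, Cbln1, with -0.83 and -0.62, and Pf4 over no stimulus, with -0.30.

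**Figure D4:**
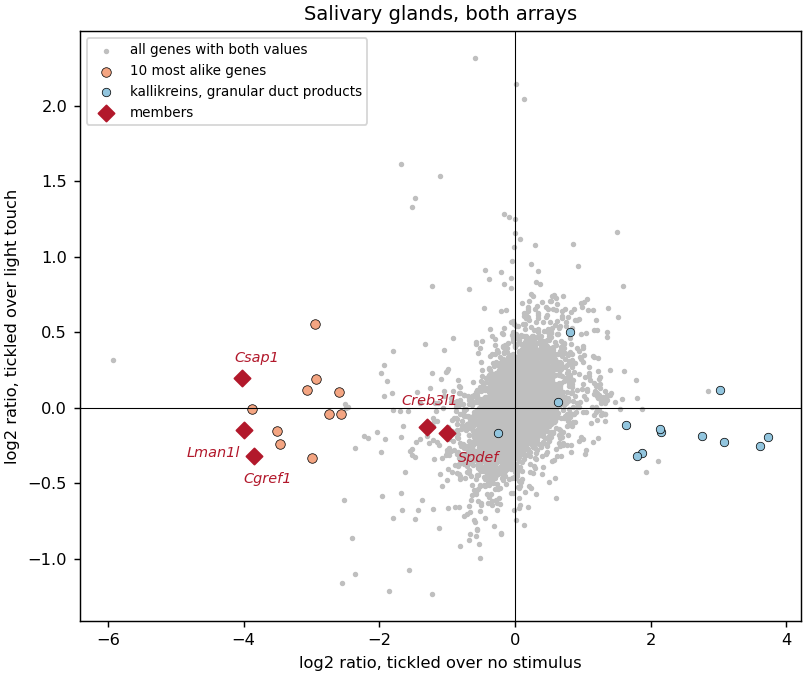
Log2 ratio of tickled over light touch (vertical) against tickled over no stimulus (horizontal) for all genes with both values in salivary glands; diamonds are the 5 chosen genes valued on both arrays, orange points the 10 most alike genes and blue points kallikreins and granular duct products. Csap1, Lman1l and Cgref1 lie near -4 on the horizontal axis and within 0.32 of 0 on the vertical one.

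Blank values were more frequent among genes low on the no-stimulus array. Of the 107 genes that were 2-fold or more lower in tickled glands on that array, 13 (12.1%) had no value on the light-touch array, Gcnt3 and B3gnt6 among them. Of the 98 genes 2-fold or more higher, 0 had none, and of all 10522 genes 178 (1.69%) had none. Of the 94 lower genes with both values, 5 were 2-fold lower on the light-touch array too. The median of the 94 there was -0.15, also that of the 5 chosen genes. Creb3l1, Csap1, Lman1l and Cgref1 are in both sets, so nothing is read from that match.

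The error of a single probe can be read only from genes with several probes. Over 3674 such genes the median SD between probes was 0.10 on the salivary no-stimulus array, and over 3732 genes it was 0.09 on the light-touch array. Among 11 genes with several valued probes whose median was 2-fold lower over no stimulus, the probes lay within 0.5 log2 units of each other for 7 and further apart for 4, by up to 4.63. Each of the 6 genes has 1 probe, so such a disagreement could not be seen for them.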

How the data were processed

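The values are log ratios deposited by the authors and read here as log2, 1 for each of 44290 features and 6 arrays, with some left blank. Per the labels, RNA (500 ng) was copied, labelled with Cy3 or Cy5 and hybridised on two-colour Agilent arrays; per the submitters' processing notes, Agilent Feature Extraction 9.1 was used. The sources used here state neither the normalization nor the log base. Base 10 would make the largest value a ratio of 56526900, against 216 in base 2.

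Features were named through the platform annotation and RefSeq's gene table (GRCr8): 23535 had 1 symbol, 48 several and 20707 none. A gene is the median of its probes with a value. With 1 array per comparison nothing was tested; genes were counted at 2-fold. Named are the 6 genes, their families, up to 6 genes past 2-fold and 2 nearest 0 in each of 11 lists, and the 10 genes nearest by Euclidean distance. C1galt1, C1galt1c1, St3gal3, Agr2, Aqp5, Tff2, B4galt4, Galnt10 and B3gnt7 were named after their values were seen. So were Bpifa2, Amy1, Prpmp5, Dnase1, Adipoq, Retn, Car3, Muc2 and Muc5ac. Genes and lists were chosen with earlier results of these data known. Python 3.11.15 with pandas 2.3.3 was used, and the gene values and counts were tested on simulated data. Alternatives were centring, scaling, other probe summaries, natural logs, probes valued on both arrays, and leaving out each gene.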

Additional observations from a re-analysis of the deposited data

Results flagged for a closer look

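Creb3l1 and Spdef had opposite signs in different tissues under the same comparison, tickled over no stimulus. For Creb3l1 the log2 ratio was -1.30 in salivary glands, against 0.27 in striatum and 0.26 in leukocytes. For Spdef it was -0.997 in salivary glands, against 0.10 in striatum and 0.26 in leukocytes. The negative salivary ratios had led to the choice of these genes, so that side of the contrast was fixed in advance. The Spdef value in striatum was about as large as the median SD between probes on the salivary no-stimulus array (0.10). Lman1l kept its negative sign in striatum (-0.15) and leukocytes (-0.36), as did Cgref1 in striatum (-0.25). Each value is 1 probe on 1 array, and the difference between tissues was not tested.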

How the results depend on the processing

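The direction of all 6 genes in salivary glands over no stimulus was the same under every alternative that gave a value. That was fixed in advance and shows no robustness. Scaling and natural logs only multiply, and centring shifted that array by 0.002. With 1 probe per gene, the other probe choices return the same value or none. The median of the 6 genes over no stimulus, -3.92, was -4.48 with each array scaled to one spread and -5.66 with values read as natural logs; both follow from the multiplication. The count of genes 2-fold lower, 5, was 6 under these 2 alternatives, where Spdef passed 2-fold, and 4 with only probes valued on both salivary arrays, which drops Gcnt3. With each gene left out in turn the median lay between -3.99 and -3.85. On the light-touch array the count past 2-fold was 0 under every alternative run. The count of O-glycosylation enzymes 2-fold lower, 7, was 4 with only probes valued on both salivary arrays, which drops Gcnt3, B3gnt6 and St3gal3. It was 8 with arrays centred on their median, where B4galt4 passed 2-fold, 8 with arrays scaled to one spread and 9 with natural logs; this count was added after seeing the data. Of 65 values of single genes under alternatives, 50 moved by less than the median SD between probes and 15 moved by more. Of these values 0 turned sign past 2-fold. Many of the 50 could not move, because a gene with 1 probe has the same value under each probe summary. No paired analysis was possible because there is 1 array per comparison and no result comes from a test. Signal over background was not used here, so how dim a probe was is unknown.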
